A study of Homo sapiens with 12 samples.

Results

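The genes described here are 10 transcripts that cells switch on when the kinase ERK is active: the phosphatases DUSP4, DUSP5 and DUSP6, the inhibitors SPRY2, SPRY4, SPRED1 and SPRED2, the transcription factors ETV4 and ETV5, and PHLDA1. They were taken by name, and all 10 were found among the 57773 gene features of the table, and all 10 passed the filter on low reads. The libraries were made from total RNA of the established ovarian cancer line ES-2. Cells of group siI1 had received an siRNA pool against IGF2BP1, those of siI2 a pool against IGF2BP2, those of siI3 a pool against IGF2BP3, and those of siC control siRNAs. Each of the 4 groups held 3 libraries; the IGF2BPs are RNA-binding proteins that influence the stability, transport and translation of mRNAs. Neither the time after transfection nor the origin of replicates in separate cultures is stated in the sources at hand, and p-values therefore reflect only how much these libraries vary, which may be technical.

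In the RAS-RAF-MEK-ERK cascade, growth factor receptors pass a signal through a chain of kinases that ends with ERK, and active ERK enters the nucleus and switches on target genes. Several of those targets shut the cascade down again: DUSPs remove phosphate from ERK and related kinases, while Sprouty and SPRED proteins act higher up, at the receptors, RAS and RAF. ETV4 and ETV5, ETS factors of the PEA3 group, carry part of the transcriptional programme, and levels of all these mRNAs are commonly read as a measure of ERK output in tumour cells.

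Because the IGF2BPs are known to affect how mRNAs meet miRNAs, the 3′ UTRs of the 10 genes were searched for 7mers that pair with bases 2 to 8 of 5 miRNA families. The families were let-7, miR-21, miR-27, miR-126 and miR-17, and the search used the longest annotated 3′ UTR per gene in GENCODE release 29. SPRY2, SPRY4 and DUSP5 each held a miR-21 and a miR-27 match, and PHLDA1 held a miR-27 match. No other member held either match. Members with these matches and members without them (DUSP4, ETV4) were both called below, and a link between matches and calls was not tested. The sites of the 4 genes are shown with the 2 miRNAs. The mature miRNAs, from RefSeq on build GRCh38.p14, lie at chr17:59841273-59841294 on the plus strand (miR-21-5p) and chr19:13836447-13836467 on the minus strand (miR-27a-3p). Capitals mark the seed in the miRNA and its match in the UTR, each written 5′ to 3′.
miR-21-5p: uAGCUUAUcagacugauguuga
SPRY2 miR-21 match: ccatgtattgcATAAGCTaaa
DUSP5 miR-21 match: tgcttcggggcATAAGCTgat
SPRY4 miR-21 match: agtcgatttacATAAGCTgtg
miR-27a-3p: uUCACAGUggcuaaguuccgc
SPRY2 miR-27 match: taatatttgcaACTGTGAaaa
DUSP5 miR-27 match: ccccaagagcaACTGTGAttt
SPRY4 miR-27 match: cccctctgcttACTGTGAcag
PHLDA1 miR-27 match: acgaagataggACTGTGAaca

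The SPRY2 UTR of 782 bases held its matches at positions 236 to 242 for miR-21 and 382 to 388 for miR-27, and the DUSP5 UTR of 1118 bases at 461 to 467 and 37 to 43. In the longer UTRs they lay at 2235 to 2241 and 3399 to 3405 of 3782 bases in SPRY4 and at 3868 to 3874 of 4672 bases in PHLDA1. Among 11258 tested genes with an annotated 3′ UTR, 10.95% held a miR-21 match, 19.9% a miR-27 match and 3.65% both. A miR-17 match was present in ETV5, SPRED1 and SPRY4, and in 27.1% of all genes. Let-7 and miR-126 matches were present in 0 of the 10 members, and in 12.99% and 0.391% of all genes. The 411 genes with both a miR-21 and a miR-27 match had a median log2 fold change in siI1 against siC of -0.33, beside -0.07 over all genes with a UTR, and of -0.35 and -0.31 in siI2 and siI3 against siC, beside -0.11 and -0.06. After each library was corrected for GC content and transcript length, the medians of the 411 genes were within 0.02 of 0 on the log2 scale in all 3 comparisons. The median 3′ UTR length was 4630 bases in the 411 genes and 1676.5 bases over all genes with a UTR. miRNA levels were not analysed here, and a match is a description of letters only.

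The libraries held 3299360 reads (siI2 replicate 3) to 11304060 reads (siC replicate 2). Levels are given in FPM, fragments scaled for each library, in which 1 read was worth 0.108 to 0.242 FPM. The library totals ran from 800026 FPM (siI2 replicate 3) to 1219058 FPM (siC replicate 2), so FPM did not scale the libraries to the same total. Each siRNA pool lowered its own target. IGF2BP1 averaged 11.1 ± 0.54 FPM in siI1 and 43.9 ± 4.52 FPM in siC, IGF2BP2 13.4 ± 5.1 FPM in siI2 and 80.0 ± 4.72 FPM in siC, and IGF2BP3 4.52 ± 1.76 FPM in siI3 and 23.5 ± 5.18 FPM in siC (SD, n = 3 each). Of 8 epithelial ovarian markers, KRT7, KRT8 and KRT18 were at 43.9 FPM or more in every group mean, while PAX8, WT1 and EPCAM stayed at or below 2.91 FPM in every library. Some markers moved with the groups: KRT8 averaged 147 FPM in siI1 and 44.0 FPM in siC (limma adjusted p = 0.000173) and KRT18 311 FPM in siI1 and 158 FPM in siC (limma adjusted p = 0.015). Of the 3 mesenchymal markers, FN1 averaged 51.8 FPM in siI1, 59.2 FPM in siI3 and 133.7 FPM in siC (limma adjusted p = 0.000435 and 0.00241), and VIM 338 FPM in siI3 and 914 FPM in siC (limma adjusted p = 0.0264). FN1 averaged 163.8 FPM in siI2 and was not called there. VIM averaged 484 FPM in siI1 and 353 FPM in siI2. It was called in neither against siC, but limma gave an unadjusted p under 0.05 in both. CDH2, the third, averaged 67.2 FPM in siI1, 47.2 in siI2, 41.4 in siI3 and 54.8 in siC. It was not called against siC, and was higher in siI1 than in siI3. After the correction for GC content and length, 1 of the 3 was higher and 1 lower in siI1 than in siC, 1 higher in siI2 and 2 lower in siI3. Of the 5 epithelial markers tested, 2 were then higher in siI1 and 1 lower in siI3 than in siC. Of 13361 genes 507, 109 and 361 were then higher and 430, 84 and 548 lower in siI1, siI2 and siI3. The part of these epithelial and mesenchymal markers in the results below was not tested. Of the markers of leukocytes, endothelium and melanocytic or glial cells, 6 of 7 were in the table, and their summed level was 144 to 158 FPM in siI1, 117 to 130 in siI2, 99.9 to 117 in siI3 and 62.3 to 80.3 in siC. Nearly all of that sum was CDH5, an endothelial cadherin, and without it the sums were 3.83 to 11.2 FPM over all 12 libraries. The leukocyte markers had at most 10 reads in any library, and the part of CDH5 was not tested either. Levels of GC-rich and GC-poor genes differed between the siC libraries. The slope of a gene's deviation on its GC content was -0.46 and -0.43 log2 units per 10 GC points in siC replicates 1 and 3, 0.03 in siC replicate 2, and -0.09 to 0.21 in the 9 knockdown libraries. Calls of members are therefore given also after correction for GC content and transcript length, and those of the related lists as counts.

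Per kilobase of longest transcript, DUSP5 was the highest of the 10 members in siC, at 64.9 ± 6.71 FPM per kb (SD, n = 3). SPRY2 (31.1), PHLDA1 (27.2), ETV5 (23.8) and DUSP6 (21.9) came next, then ETV4 (14.1), SPRY4 (11.2), DUSP4 (6.93), SPRED1 (6.73) and SPRED2 (4.35). Neighbours in this order overlapped between libraries, except DUSP5 with SPRY2 and SPRED1 with SPRED2. The spread over all 12 libraries differed between members: the highest library exceeded the lowest by 1.57-fold for DUSP6, 1.87-fold for ETV5 and 1.97-fold for SPRED2, against 4.06-fold for DUSP4, 3.36-fold for SPRED1 and 3.27-fold for PHLDA1.

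**Figure D1:**
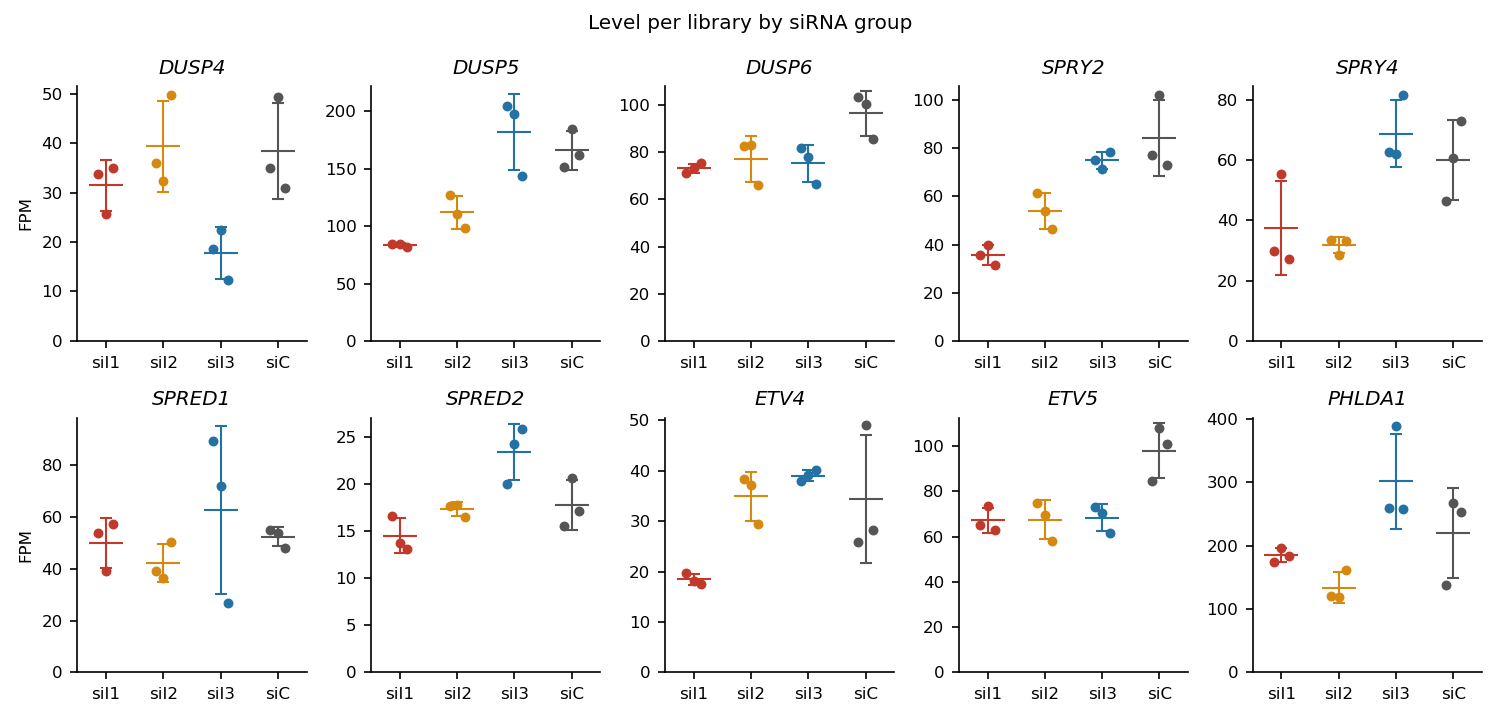
Level of each of the 10 members in FPM (vertical axes, each starting at 0) in the siI1, siI2, siI3 and siC groups; points are libraries, horizontal bars the group mean and whiskers the SD (n = 3). SPRY2, DUSP5 and ETV4 sit lowest in siI1, SPRY4 and PHLDA1 have their lowest mean in siI2, DUSP4 sits lowest in siI3, and ETV5 and DUSP6 lie below siC in all 3 knockdowns.

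The 3 phosphatases had 3 different patterns over the knockdowns. DUSP5, which removes phosphate from ERK in the nucleus, had 84.8, 84.1 and 81.4 FPM in the siI1 libraries, 126.9, 110.2 and 98.4 FPM in siI2, 204.9, 197 and 143 FPM in siI3, and 151, 185 and 162 FPM in siC. All siI1 libraries lay below every other library, the siI2 libraries lay between siI1 and siC without overlap, and siI3 overlapped siC. DUSP5 fell in siI1 to 50.3% of siC, a log2 fold change of -0.98 ± 0.18 (SE; limma adjusted p = 0.00449). In bulk RNA, fewer cells with a transcript and less of it per cell cannot be told apart. It was at 67.4% of siC in siI2, where it missed the threshold (-0.57, limma adjusted p = 0.103), and passed it after the correction for GC content and length (-0.69, limma adjusted p = 0.00927). In siI3 the difference was 0.12, with a 95% interval of -0.27 to 0.51.

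DUSP4, a nuclear phosphatase of ERK, JNK and p38, was low in siI3 instead. It had 18.7, 22.5 and 12.2 FPM in siI3, against 34.9, 49.4 and 30.9 FPM in siC, and the groups did not overlap. It fell in siI3 to 46.4% of siC, a log2 fold change of -1.08 ± 0.26 (SE; limma adjusted p = 0.0211). The siI1 libraries had 33.9, 25.6 and 35.0 FPM and the siI2 libraries 36.0, 32.3 and 49.7 FPM, both overlapping siC, with differences of -0.26 and 0.04. The DUSP4 call in siI3 was kept in 3 of the 6 fits that left out 1 library. Leaving out replicate 1 or 3 of siC, or replicate 1 of siI3, ended it (highest limma adjusted p = 0.0848), with a log2 fold change of -1.26 to -0.85 over the 6. Without siC replicates 1 and 3 together it was -1.46 (limma adjusted p = 0.251).

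DUSP6, the cytoplasmic ERK phosphatase, varied least. It had 71.3, 73.1 and 75.2 FPM in siI1, 82.4, 82.9 and 66.0 FPM in siI2, 81.5, 77.7 and 66.5 FPM in siI3, and 103, 100.2 and 85.5 FPM in siC. Every knockdown library lay below every siC library, at group means of 75.9%, 79.9% and 78.0% of siC, but no comparison was called (limma adjusted p = 0.158, 0.275 and 0.180). After the correction the differences were -0.19, -0.08 and -0.05 on the log2 scale. The 3 comparisons share the same siC libraries, so their likeness is not independent evidence.

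Among the Sprouty and SPRED genes, SPRY2 had the lowest siI1 levels relative to siC. SPRY2, which restrains signalling from growth factor receptors to RAS, had 35.6, 40.0 and 31.5 FPM in siI1, 61.3, 54.0 and 46.6 FPM in siI2, 75.1, 71.3 and 78.5 FPM in siI3, and 77.2, 102 and 73.2 FPM in siC. The groups siI1, siI2 and siI3 did not overlap each other, and siI3 overlapped siC. SPRY2 fell in siI1 to 42.3% of siC, a log2 fold change of -1.21 ± 0.19 (SE; limma adjusted p = 0.00117). It was at 64.0% of siC in siI2 (-0.63, limma adjusted p = 0.0885) and 88.9% in siI3 (-0.15, 95% interval -0.55 to 0.24).

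SPRY4, a second Sprouty, did not share that pattern. It had 30.0, 55.3 and 27.2 FPM in siI1, 33.4, 28.7 and 33.2 FPM in siI2, 62.9, 62.1 and 81.7 FPM in siI3, and 46.6, 60.8 and 73.0 FPM in siC. The siI2 libraries lay below all siC libraries (52.8% of siC, log2 fold change -0.88, SE 0.25), and this was not called (limma adjusted p = 0.0782). In siI1, replicate 2 lay among the siC libraries while the other 2 lay below them. The siI1 difference was -0.72 with limma adjusted p = 0.0816, and -1.03 with limma adjusted p = 0.0201 without that library.

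SPRED1 and SPRED2, which bring the RAS inhibitor neurofibromin to the membrane, were not called against siC in any knockdown. SPRED2 had 16.6, 13.8 and 13.2 FPM in siI1, 17.7, 17.8 and 16.5 FPM in siI2, 20.1, 24.3 and 25.9 FPM in siI3, and 15.5, 20.7 and 17.2 FPM in siC. Every siI3 library exceeded every siI1 and siI2 library, and each knockdown overlapped siC. SPRED1 had 53.9, 39.0 and 57.1 FPM in siI1, 39.2, 36.6 and 50.4 FPM in siI2, 89.2, 71.8 and 26.6 FPM in siI3, and 55.1, 53.9 and 48.1 FPM in siC. The siI3 libraries thus held both the highest levels of SPRED1 and the lowest one. SPRED1 has a GC content of 38.9%, the lowest of the members, and its 95% interval in siI3 against siC ran from -0.60 to 0.77.

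The ETV factors also differed from each other. ETV4 had 19.7, 18.1 and 17.6 FPM in siI1, 38.3, 37.1 and 29.3 FPM in siI2, 37.9, 39.1 and 40.0 FPM in siI3, and 25.9, 49.0 and 28.2 FPM in siC. All siI1 libraries lay below the other 9, and the siC libraries were split, with replicate 2 far above the others. ETV4 fell in siI1 to 53.8% of siC, a log2 fold change of -0.80 ± 0.23 (SE; limma adjusted p = 0.0397). This call was lost whichever of the 6 libraries was left out (limma adjusted p = 0.0559 to 0.135). The log2 fold change was -0.97 to -0.77 in 5 of these fits and -0.53 without siC replicate 2. ETV4 has the highest GC content of the members, 60.8%, and after the correction the difference was -1.15 (limma adjusted p = 0.00113). Without siC replicates 1 and 3 together it was -1.36 (limma adjusted p = 0.0493).

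The sources at hand do not give the strand setting, and 68 of the 3607 exonic bases of ETV4 (1.89%) overlap DHX8, a helicase gene on the other strand, so reads there cannot be told apart. DHX8 averaged 52.1 ± 1.53 FPM in siI1 and 51.2 ± 5.05 FPM in siC (SD, n = 3 each), a log2 fold change of 0.03. Its log2 fold change was 0.51 in siI1 against siI3 and -0.48 in siI3 against siC, neither of them called (limma adjusted p = 0.108 and 0.0939), and the part of such reads in the ETV4 results was not tested.

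ETV5 had 64.9, 73.6 and 63.1 FPM in siI1, 75.0, 69.6 and 58.0 FPM in siI2, 73.0, 70.3 and 61.7 FPM in siI3, and 84.4, 108 and 101 FPM in siC. As with DUSP6, every knockdown library lay below every siC library, at 68.7%, 69.0% and 69.8% of siC. The log2 fold changes of -0.53, -0.53 and -0.51 did not pass the test (limma adjusted p = 0.0704, 0.113 and 0.0743). The siI1 value passed with edgeR on recovered reads (adjusted p = 0.0460), and with DESeq2 those of siI1 (adjusted p = 0.0146) and siI3 (adjusted p = 0.0264) passed. After the correction the 3 differences were -0.44, -0.37 and -0.29.

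PHLDA1, a pleckstrin homology-like protein whose mRNA is a common readout of ERK activity, was the member with the highest level in FPM. It had 174.7, 197 and 184 FPM in siI1, 120.3, 119 and 162 FPM in siI2, 260.3, 389 and 257 FPM in siI3, and 138, 268 and 253 FPM in siC. The knockdown groups did not overlap each other, and the siC libraries overlapped all 3 of them. No comparison with siC was called, and the differences were -0.19 in siI1, -0.67 in siI2 and 0.49 in siI3. After the correction they were 0.08, -0.34 and 0.87 (95% interval 0.29 to 1.46 in siI3), still without a call (limma adjusted p = 0.893, 0.553 and 0.0649).

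**Figure D2:**
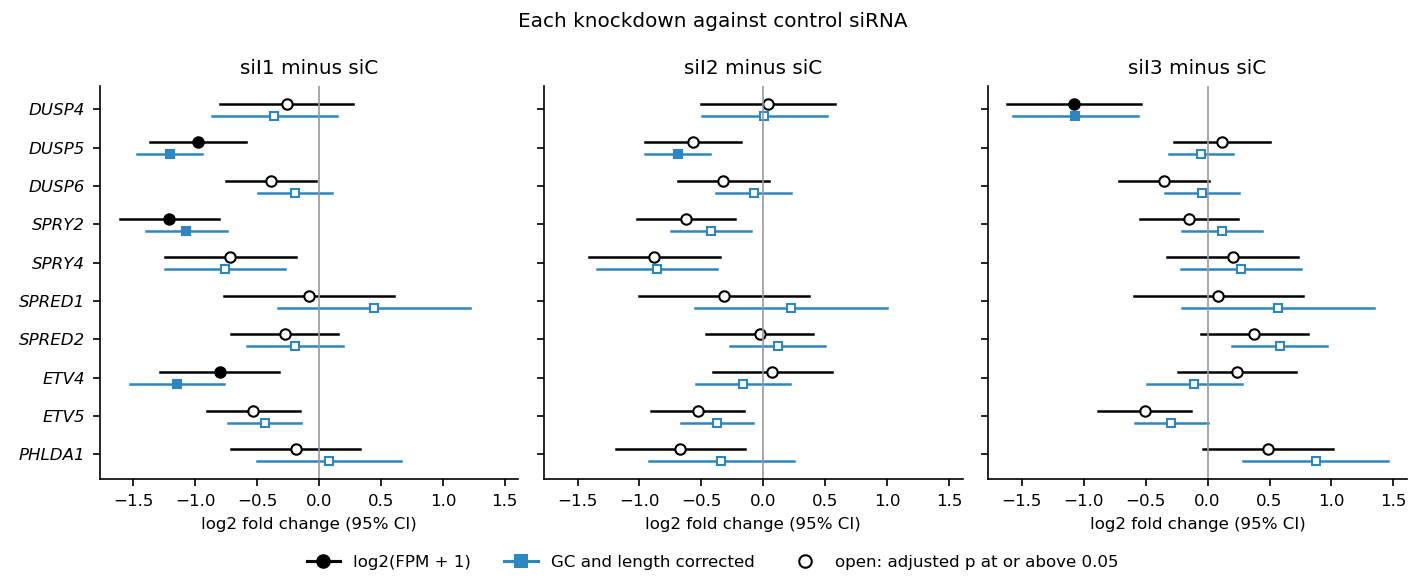
Log2 fold change of each member in siI1, siI2 and siI3 against siC, with 95% intervals; black circles are log2(FPM + 1), blue squares the values after correction for GC content and length, and filled symbols have an adjusted p under 0.05. Filled circles stand at DUSP5, SPRY2 and ETV4 in siI1 and at DUSP4 in siI3, and none in siI2.

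Counted over the 10 members, 3 fell in siI1 (SPRY2, DUSP5, ETV4) and 0 rose. Among all 13782 genes tested, 4.42% were lower and 3.77% higher in siI1 than in siC. In 5 of 10 members all siI1 libraries lay below all siC libraries, as did 17.6% of all genes. The median log2 fold change of the members was -0.46, beside -0.05 over all genes, and all 10 values were negative. After the correction 2 of them were positive (SPRED1 0.44, PHLDA1 0.08), and the same 3 members were called lower, against 3.22% of genes. SPRY2 and DUSP5 kept their calls in all 6 fits that left out 1 library. With siC replicates 1 and 3 both left out, the DUSP5 difference was -1.14 (limma adjusted p = 0.115) and that of SPRY2 -1.50 (limma adjusted p = 0.0274).

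In siI2 0 of 10 members were called in either direction by limma or by edgeR on recovered reads, where 0.936% of all genes were lower and 0.573% higher. Without adjustment, limma gave p under 0.05 for 5 members (SPRY4, SPRY2, DUSP5, ETV5, PHLDA1), all lower, and DESeq2 called 2, DUSP5 and SPRY2. In 5 of 10 members the siI2 libraries all lay below siC, as did 12.3% of all genes, and the median was -0.43, beside -0.09 over all genes. After the correction the median was -0.25, and 1 member, DUSP5, was lower, against 0.629% of genes.

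In siI3 1 of 10 members fell, DUSP4, and 0 rose, where 8.29% of all genes were lower and 2.30% higher. A share of 1 in 10 is near that background. In 3 of 10 members the siI3 libraries all lay below siC (DUSP4, DUSP6, ETV5), as did 20.0% of all genes. The median was 0.10, beside -0.05 over all genes, with 6 positive and 4 negative values. After the correction DUSP4 alone was lower, against 4.10% of genes.

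The authors' deposited table gave an FDR of 0.000187 for SPRY2 in siI1 (log2 fold change -1.24). For DUSP5 in siI1 the authors' deposited table gave -0.99 with an FDR of 0.00812. ETV4 in siI1 (-0.90, FDR 0.158) and DUSP4 in siI3 (-1.10, FDR 0.0843) had the same sign there at a larger FDR in the authors' deposited table.

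The knockdowns were then set against each other, which leaves the siC libraries and their GC trend out of the difference. In siI1 against siI3, 4 of 10 members were lower and 0 higher, where 2.47% of all genes were lower and 4.57% higher. DUSP4 was 0.82 higher with limma adjusted p = 0.0665, and DESeq2 called it (adjusted p = 0.0382). DUSP5 (log2 fold change -1.10, SE 0.18, limma adjusted p = 0.00118) and SPRY2 (-1.06, SE 0.19, limma adjusted p = 0.0019) were at 45.9% and 47.6% of siI3. ETV4 was at 47.3% (-1.04, SE 0.23, limma adjusted p = 0.00882). These 3 calls were kept in all 6 fits that left out 1 library. SPRY4 was at 54.4% (-0.92, SE 0.25, limma adjusted p = 0.0338), and its call was kept in 1 of 6 (log2 fold change -1.23 to -0.73). In 6 of 10 members the siI1 libraries all lay below siI3 and in 1, DUSP4, all above, as did 12.1% and 15.9% of all genes. The members' median was -0.67, beside 0.01 over all genes. After the correction SPRED2 joined the 4 (-0.78, limma adjusted p = 0.0108), making 5 of 10 lower against 5.25% of genes.

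In siI2 against siI3, 2 of 10 members were lower and 1 higher, where 0.740% of all genes were lower and 1.26% higher. PHLDA1 was lower at 44.2% of siI3 (log2 fold change -1.16, SE 0.25, limma adjusted p = 0.0216) and SPRY4 at 46.1% (-1.08, SE 0.25, limma adjusted p = 0.0339). DUSP4 was higher at 221% (1.12, SE 0.26, limma adjusted p = 0.0318). These calls were kept in 2, 0 and 2 of the 6 fits that left out 1 library, at limma adjusted p up to 0.123, 0.112 and 0.0885. The log2 fold changes were -1.30 to -0.96, -1.15 to -0.96 and 0.89 to 1.30 over these fits. In 5 of 10 members the siI2 libraries all lay below siI3 and in 1 all above, as did 8.84% and 7.69% of all genes. After the correction DUSP5 was also lower (-0.64, limma adjusted p = 0.0078), so that 3 members were lower against 1.64% of genes and 1 higher against 2.32%. SPRED1 was lower in siI2 without siI3 replicate 3 (-0.93, limma adjusted p = 0.0298), and with it the difference was -0.41 (limma adjusted p = 0.610).

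In siI1 against siI2, 0 of 10 members were called, where 0.769% of all genes were lower and 1.63% higher. The smallest limma adjusted p was 0.0517, for ETV4 at 52.9% of siI2 (log2 fold change -0.88). Without adjustment, limma gave p under 0.05 for 3 members, ETV4, SPRY2 and DUSP5, edgeR on recovered reads called 1 (ETV4) and DESeq2 called 2 (ETV4 and SPRY2). In those 3 members the siI1 libraries all lay below siI2, and in PHLDA1 all above, as did 8.16% and 13.3% of all genes. After the correction the 3 were called lower (ETV4 -0.98, SPRY2 -0.65, DUSP5 -0.52, highest limma adjusted p = 0.0250), against 2.10% of genes.

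**Figure D3:**
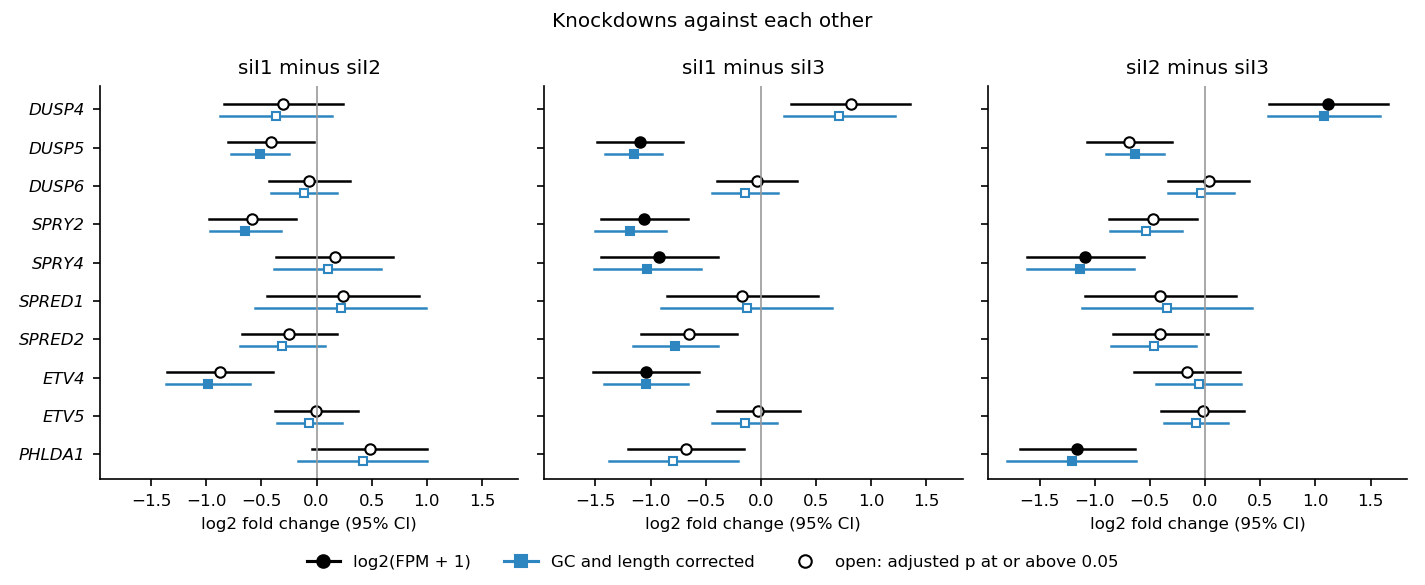
Log2 fold change of each member in siI1 against siI2, siI1 against siI3 and siI2 against siI3, with 95% intervals; symbols as in the plot against siC. In siI1 against siI3, DUSP5, SPRY2, SPRY4 and ETV4 are filled on the negative side, and DUSP6 and ETV5 lie within 0.07 of 0 in all 3 panels before correction.

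DUSP6 and ETV5 were the members whose knockdown groups lay closest to each other. Their 6 differences between knockdowns ran from -0.07 to 0.03 on the log2 scale, with 95% intervals reaching no further than -0.43 and 0.40. A p that misses the threshold does not show equal levels, and these intervals give the size that was not resolved.

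Related genes were followed from lists chosen with earlier results of these data known. Of 13 relatives of the members, 10 were tested, and DUSP2, DUSP8 and DUSP9 had at most 17 reads in any library. DUSP16, a JNK and p38 phosphatase, averaged 5.07 ± 0.18 FPM in siI1 and 14.003 ± 2.44 FPM in siC (SD, n = 3 each). It was the only relative called in siI1 against siC (log2 fold change -1.29, limma adjusted p = 0.0028), and in siI2 against siC 0 of 10 were called by limma or edgeR (3 at an unadjusted p under 0.05). Of all genes 4.42% were lower and 3.77% higher in siI1, and 0.936% lower and 0.573% higher in siI2. DUSP1, a nuclear phosphatase induced by stress and growth factors, averaged 16.4 ± 3.88 FPM in siI1, 36.7 ± 4.04 FPM in siI2, 50.7 ± 13.96 FPM in siI3 and 21.02 ± 7.05 FPM in siC (SD, n = 3 each). DUSP1 rose in siI3 against siC (1.24, limma adjusted p = 0.015) and was lower in siI1 than in siI3 (-1.56, limma adjusted p = 0.00145) and siI2 (-1.14, limma adjusted p = 0.0324). DUSP16 was also lower in siI1 than in siI2 (-0.96, limma adjusted p = 0.0302), and in siI2 against siI3 0 relatives were called by limma or edgeR (2 at an unadjusted p under 0.05). The siI3 group thus had higher DUSP1 and lower DUSP4. Of all genes 2.30% were higher and 8.29% lower in siI3 than in siC. In siI1 0.769% were lower than in siI2 and 2.47% lower than in siI3. In siI2 0.740% were lower and 1.26% higher than in siI3. After the correction the counts of relatives were the same, except for 2 lower in siI1 against siI3 (5.25% of genes). Of 13361 genes 430 were then lower in siI1 and 361 higher in siI3 than in siC. In siI1 281 were lower than in siI2. ETV1, the third factor of the PEA3 group, averaged 33.5 ± 4.37, 29.4 ± 4.68 and 32.2 ± 8.16 FPM in siI1, siI2 and siI3, and 45.7 ± 4.69 FPM in siC (SD, n = 3 each). It was not called in any of these, and after the correction its differences from siC were 0.12, -0.06 and -0.04.

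Of 12 other genes commonly read as ERK output, 3 were lower in siI1 than in siC, 0 in siI2 and 2 in siI3, and 0 were higher, where 4.42%, 0.936% and 8.29% of all genes were lower. In siI2, edgeR on recovered reads also called 0, and limma gave an unadjusted p under 0.05 for 4 lower and 1 higher. In siI1 against siI3 POLR3G alone was called (-1.23), and in the other 2 comparisons between knockdowns 0 were called by limma or edgeR, with 4 and 2 at an unadjusted p under 0.05. Of all genes 2.47% were lower and 4.57% higher in siI1 against siI3. The shares were 0.769% and 1.63% in siI1 against siI2, and 0.740% and 1.26% in siI2 against siI3. ERRFI1, a feedback inhibitor of the EGF receptor, averaged 159.5 ± 56.8 FPM in siI1, 183 ± 106 FPM in siI2, 161 ± 85.5 FPM in siI3 and 443 ± 50.2 FPM in siC (SD, n = 3 each). It fell in siI1 (log2 fold change -1.52, limma adjusted p = 0.0274) and in siI3 (-1.57, limma adjusted p = 0.0238), and its difference in siI2 was -1.44 (limma adjusted p = 0.0686). EPHA4, an ephrin receptor, and POLR3G, an RNA polymerase III subunit, fell in siI1 (-1.10 and -1.20), and EMP1, a membrane protein, fell in siI3 (-1.05). The median of the 12 was -0.11 in siI1, -0.22 in siI2 and 0.04 in siI3, beside -0.05, -0.09 and -0.05 over all genes. After the correction 2 of the 12 were lower in siI1, 1 in siI2 and 2 in siI3 than in siC, and 0 were higher. Of 13361 genes 430, 84 and 548 were then lower. Between knockdowns the correction called 1 higher and 1 lower in siI1 against siI2. It called 1 lower in siI1 against siI3 and 1 higher in siI2 against siI3. Of all genes 373, 860 and 310 were then higher and 281, 702 and 219 lower.

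Of 27 cascade genes, 3 were lower and 1 higher in siI1 than in siC, 1 lower in siI2, and 3 lower and 1 higher in siI3. Of all genes 4.42% were lower and 3.77% higher in siI1, 0.936% lower in siI2, and 8.29% lower and 2.30% higher in siI3. The 27 had a median log2 fold change against siC of -0.52 for siI1, where all genes had -0.05. Their medians were -0.40 for siI2 (all genes -0.09) and -0.42 for siI3 (all genes -0.05). The 10 members had medians of -0.46, -0.43 and 0.10, so their shift for siI1 and siI2 was not particular to them. MAPK3, which encodes ERK1, averaged 60.5 ± 2.61 FPM in siI1 and 32.2 ± 7.13 FPM in siC (SD, n = 3 each), and rose in siI1 (log2 fold change 0.91, limma adjusted p = 0.0098). PTPN11, the phosphatase SHP2 that passes receptor signals to RAS, was lower in siI1, siI2 and siI3 than in siC (-1.05, -1.11 and -0.88). After the correction these 3 differences were -0.63, -0.66 and -0.41, and only that of siI1 was called. With edgeR on recovered reads 0 of the 27 were called in siI2 against siC. After the correction 3 of the 27 were lower and 1 higher in siI1 than in siC, 0 were called in siI2, and 1 was lower and 1 higher in siI3. Of 13361 genes 430, 84 and 548 were then lower and 507, 109 and 361 higher. RASA1, a RAS GTPase activator, was lower in siI1 (-1.26), NRAS lower in siI3 (-1.21), and KSR1, a scaffold of the cascade, higher in siI3 (0.78). NRAS was not called in siI3 against siC by edgeR on recovered reads. Between knockdowns, MAPK3 was higher in siI1 than in siI3 (0.66, limma adjusted p = 0.0475), and 0 of 27 were called by limma or edgeR in the other 2 comparisons (3 and 2 at an unadjusted p under 0.05). Of all genes 4.57% were higher in siI1 than in siI3. The shares were 1.63% higher and 0.769% lower in siI1 against siI2, and 1.26% and 0.740% in siI2 against siI3. After the correction 1 of the 27 was lower in siI1 than in siI2. It also called 2 higher in siI1 against siI3 and 2 higher in siI2 against siI3. Of 13361 genes 281 were then lower in siI1 against siI2. In siI1 against siI3 860 were higher, and in siI2 against siI3 310.

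Of 16 genes for regulators of the members or of their proteins, 1 was higher and 1 lower in siI1 than in siC, 1 lower in siI2, and 0 called in siI3 by limma or by edgeR on recovered reads (3 at an unadjusted p under 0.05). Of all genes 3.77% were higher and 4.42% lower in siI1, 0.936% lower in siI2, and 2.30% higher and 8.29% lower in siI3. After the correction 2 of the 16 were higher and 1 lower in siI1 than in siC. It called 1 higher and 1 lower in siI2, and 0 in siI3. Of 13361 genes 507, 109 and 361 were then higher and 430, 84 and 548 lower. ETS2, an ETS factor activated by ERK, averaged 14.2 ± 2.11 FPM in siI1, 18.4 ± 1.11 FPM in siI2, 38.0 ± 8.72 FPM in siI3 and 38.9 ± 5.52 FPM in siC (SD, n = 3 each). It fell in siI1 (log2 fold change -1.39, limma adjusted p = 0.00113) and in siI2 (-1.03, limma adjusted p = 0.0261), and the order of its group means was that of SPRY2. ATXN1, a partner of CIC, the repressor of the ETV genes, averaged 37.5 ± 1.74 FPM in siI1 and 19.6 ± 2.31 FPM in siC (SD, n = 3 each), and was higher in siI1 than in siC (0.91, limma adjusted p = 0.0252) and than in siI3 (1.35, limma adjusted p = 0.00126). CIC itself averaged 58.3 ± 2.31 FPM in siI1 and 38.4 ± 10.2 FPM in siC (SD, n = 3 each), a difference of 0.62 that was not called (limma adjusted p = 0.114) and was 0.22 after the correction. In siI2 against siI3, ETS1 was higher (0.78) and ETS2 (-0.98) and ELK3 (-1.47), both ETS factors, were lower. In siI1 against siI3 ETS2 was lower (-1.34), and in siI1 against siI2 0 of 16 were called by limma or edgeR (2 at an unadjusted p under 0.05). Of all genes 4.57% were higher and 2.47% lower in siI1 than in siI3. The shares were 1.63% and 0.769% in siI1 against siI2, and 1.26% and 0.740% in siI2 against siI3. After the correction 2 of the 16 were higher and 2 lower in siI1 than in siI3. It called 1 higher and 2 lower in siI2 against siI3, and 0 in siI1 against siI2. Of 13361 genes 860 were then higher and 702 lower in siI1 against siI3. The counts were 310 and 219 in siI2 against siI3, and 373 and 281 in siI1 against siI2.

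**Figure D4:**
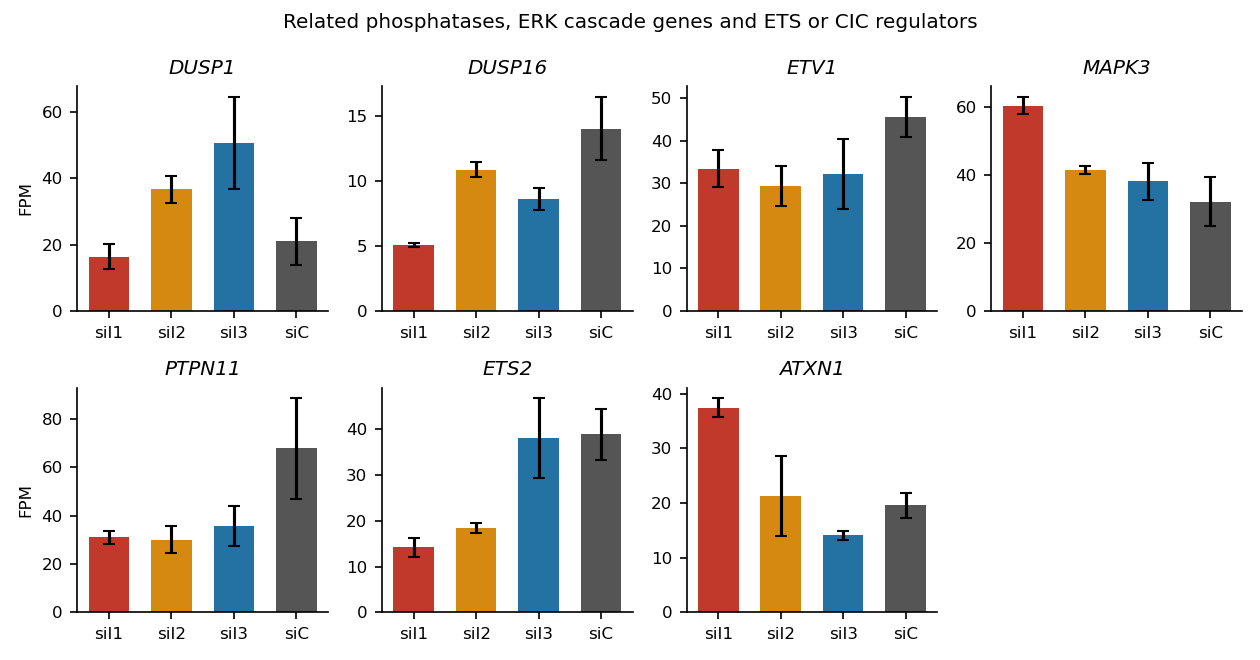
Mean level in FPM of 7 related genes in siI1, siI2, siI3 and siC; bars start at 0 and whiskers are the SD (n = 3). In siI1, DUSP16, PTPN11 and ETS2 lie below siC, and MAPK3 and ATXN1 lie above it; DUSP1 is highest in siI3.

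The genes with the profile most like that of SPRY2 over the 12 libraries included MAST4, a kinase gene, and LRRFIP2. The root mean squared differences of their centred log2(FPM + 1) profiles from SPRY2 were 0.17 and 0.23, where the median over the 9309 genes averaging 5 FPM or more was 0.61. MAST4 averaged 6.24 FPM in siI1, 11.1 in siI2, 16.3 in siI3 and 16.6 in siC, the same order as SPRY2. As MAST4 was picked for its likeness to SPRY2 over these libraries, the shared order is not a separate observation. For DUSP6 they were KLHDC4 (0.07), CSNK2A3 (0.11) and AARS (0.11), the gene of alanyl-tRNA synthetase, against a median of 0.40 over the same genes. CSNK2A3 is a near copy of CSNK2A1, and its reads are uncertain. DUSP6 itself moved by 0.19 around its own mean and SPRY2 by 0.50 (root mean square), so a flat profile is close to that of DUSP6.

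Promoter sequences in the RefSeq table (250 bases before to 50 after the start) were matched for 6 of 10 members: SPRED2, SPRY4, PHLDA1, DUSP6, SPRY2 and SPRED1. Both strands were searched for the CIC motifs TGAATGAA and TGAATGGA, the extended ETS motif CCGGAAG and the AP-1 motif TGANTCA. The 2 CIC motifs share their first 6 letters. None of the 4 was found in any of the 6 windows, and they were present in 1.18%, 0.573%, 19.7% and 4.57% of 9419 promoters of tested genes. This says only that those letters are not in these windows. Shorter ETS motifs, such as the core GGAA, were not searched.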

How the data were processed

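The 12 libraries were grouped by their titles. Per the labels' protocols, total RNA was depleted of ribosomal RNA, fragmented, primed with random hexamers and sequenced in paired reads. Per the submitters' processing notes, cutadapt 1.6, TopHat2 2.0.13, featureCounts 1.4.6, edgeR 3.12 and the hg19 build were used; the sources at hand do not give further steps. Per the file headers, the deposited table holds FPM, a signal normalized by the authors, with log2 fold changes and FDR values (adjusted p-values), quoted only as the authors'. Its 57865 features include 92 spike-ins, left out here. All FPM values were whole multiples of 1 read (tolerance 0.01), which gave 100% whole reads. Floors and depth cover counting error only.

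The test was limma 3.58.1 (R 4.3.3) on log2(FPM + 1), with a trend of variance on mean; this scale understates changes of low genes. It used all 12 libraries and the 13782 genes that filterByExpr kept (minimum count 10), with Benjamini-Hochberg adjustment over all genes and a threshold of 0.05. edgeR 4.0.16 and DESeq2 1.42.0 on recovered reads were alternatives; against siC, edgeR called 1388 (siI1), 185 (siI2) and 1370 (siI3) genes. The GC correction subtracted from each library a loess surface (span 0.5) over transcript GC content and length, from each gene's longest GENCODE 29 transcript (13361 genes). The script was tested on simulated data. The members and lists were chosen with earlier results of these data known. Named genes were all members, up to 4 called genes per list and comparison, the 3 targets, and the 3 profiles nearest to DUSP6 and to SPRY2. Some genes that this rule names are not reported here. CIC, ETV1, DHX8 and CDH5 are also given; they were named after their values were seen. Replicates differed by more than counting noise (chi-square per degree of freedom 8.03 to 85.8).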

Additional observations from a re-analysis of the deposited data

How the results depend on the processing

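The 11 calls of members gave 180 alternative values, all of the same sign, and 136 had an adjusted p under 0.05; the 49 uncalled results had 54 alternative values of the other sign, none of them called. In siI1 against siC (3 members called) the count was 2 to 4 and in siI1 against siI3 (4 called) 3 to 6 under the alternatives. In siI2 against siC (0 called) DESeq2 called 2 and the GC and length correction 1, also with the replicate block. In siI3 against siC (1 called) no filter on low reads gave 0, DESeq2 gave 2, leaving out single libraries gave 0 to 1, and leaving out siC replicates 1 and 3 gave 0. In siI1 against siI2 (0 called) RLE scaling, edgeR and a fit of only the 6 libraries gave 1 each, DESeq2 2, and the correction 3, also with the replicate block. In siI2 against siI3 (3 called) no filter gave 0, only the 6 libraries 1, the replicate block 1, and single libraries left out 0 to 3. The cause of these moves was not tested.

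Over all genes, leaving out single libraries gave 268 to 2602 calls in siI1 (1128 with all), 28 to 1572 in siI2 (208) and 89 to 2824 in siI3 (1460) against siC, and without siC replicates 1 and 3 there were 40, 1 and 15. The share of higher genes among calls was 46.0%, 38.0% and 21.7%, 56.6%, 60.1% and 34.4% with RLE scaling, and 54.1%, 56.5% and 39.7% after the correction. DESeq2 called 2014, 716 and 2296 genes, no filter 481, 77 and 461, the correction 909 in siI3, and fits of only the 6 libraries 2039 in siI1 and 37 in siI2. Between knockdowns the correction called 654, 1562 and 529 genes, where 331, 971 and 276 were called without it (siI1 against siI2, siI1 against siI3, siI2 against siI3); DESeq2 called 544, 1392 and 557, only the 6 libraries 91 in siI2 against siI3, no filter 172, 594 and 134, and single libraries left out 127 to 243, 546 to 1223 and 112 to 410. The share of higher genes in siI1 against siI2 was 68.0%, and 57.0% after the correction.

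No pairing of the libraries by replicate number was seen. Correlations of same-numbered libraries ran from -0.45 to 0.45, 7 of 18 were over 0.1, and 3 of 12 libraries correlated best with their own number. With 3 libraries per group that differ in GC trend, these correlations cannot exclude pairing. With the replicate block 696, 95 and 745 genes were called in siI1, siI2 and siI3 against siC.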
